A study of Mus musculus with 11 samples.

Results

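The hippocampus of male mice sampled 6 h after insulin given through the nose was compared with that sampled 1 h after the same dose, in 3 libraries at each time, 6 of the 11 libraries of the series. The animals were C3-C57B1/6J mice, 2 to 3 months old and housed singly. Each insulin group received 2.4 IU of insulin per nare, and all animals were anaesthetized with isoflurane before the hippocampus was taken. Neither group of this comparison is untreated: both received insulin and differ by the label only in the time since the dose. The other libraries, 3 from mice given saline (labelled untreated at 0 min) and 2 taken 15 min after insulin, entered the fit for the estimate of spread, and their levels are shown beside some genes as a description. Per the labels there were 3 animals at each time; that a library stands for a single animal is not stated, and the p-values below then reflect differences among libraries that may be technical. The study concerns insulin and lipid metabolism in the brain. The comparison asks which transcripts present shortly after insulin differ from those present hours later.

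Insulin binds a receptor tyrosine kinase and signals through its substrates to PI3K and AKT, which holds FOXO transcription factors out of the nucleus, and through the MAP kinase cascade, which drives immediate early genes. Immediate early genes encode short-lived transcription factors whose transcripts appear within minutes of a stimulus and decay within hours; in the hippocampus they are best known as reporters of neuronal activity. Many of the same genes respond to handling, stress hormones and anaesthesia.

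Values are the deposited log2 signal of each gene, scaled for transcript length and set to a common distribution in all libraries, so a difference of 1 is a doubling on that scale. Depth is unknown. Genes with a value numbered 32133 to 32640 at 1 h and 32703 to 33653 at 6 h, and these ranges did not overlap (exact permutation test, two-sided, p = 0.1, the smallest that 3 against 3 allows). The 18S ribosomal RNA row, Rn18s-rs5, read 10.18, 10.51 and 10.22 at 1 h and 12.19, 11.65 and 11.04 at 6 h, higher in every 6 h library (exact permutation test, two-sided, p = 0.1). The libraries also carry a running number in the deposited table that follows the groups. Its order is saline, 6 h, 15 min and 1 h. In it 6 h stands next to saline and 1 h next to 15 min. An effect of that order and of the time after insulin cannot be told apart. This holds also where a gene below had a 6 h level near saline or a 15 min level near 1 h. The 18S row had means of 14.28 with saline and 10.08 at 15 min. Genes with a value numbered 32941 to 33510 with saline and 32427 and 32037 at 15 min. Markers of the hippocampus were present at both times: the summed level of 10 dentate granule neuron markers was 3.20 to 3.35 at 1 h and 3.29 to 3.41 at 6 h, and that of 11 pyramidal neuron markers 2.86 to 3.77 and 2.67 to 3.66. Striatum markers were present as well, with a summed level of 9 markers of 3.24 to 4.76 at 1 h and 3.33 to 4.17 at 6 h. The third library of 1 h was the highest of the 6 for the striatum and pyramidal sums.

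Of 27445 gene rows tested, 3 differed between 6 h and 1 h at an adjusted p under 0.05 (limma, Benjamini-Hochberg), 0.0109% of all rows. The transcription factors Klf4 and Fos were lower at 6 h (0.00729% of all rows were called lower), and the long noncoding RNA Gm36849 was higher (0.00364% were called higher). An unadjusted p under 0.05 was reached by 3063 rows, 2465 of them higher and 598 lower at 6 h. Among the 26317 rows with a value in all 6 libraries, the 3 libraries of 6 h all lay above the 3 of 1 h in 3505 rows (13.3%) and all below in 834 (3.17%), 16.5% together. The same 2 percentages are the background for the lists below, and no list other than the immediate early factors had a member past the threshold in limma; the counts at an unadjusted p under 0.05 stand beside each list. The median difference of all rows was 0.07, with 62.96% of rows above 0. That lean towards 6 h depended on the scaling: with equal medians over the genes common to all libraries the median was -0.03 with 44.5% of rows above 0, and the rows without overlap were 6.43% higher and 9.83% lower. After cyclic loess scaling they were 8.14% higher and 7.02% lower. Counts under these scalings are given below where they turn or differ by much, and are read against these shares.

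**Figure D1:**
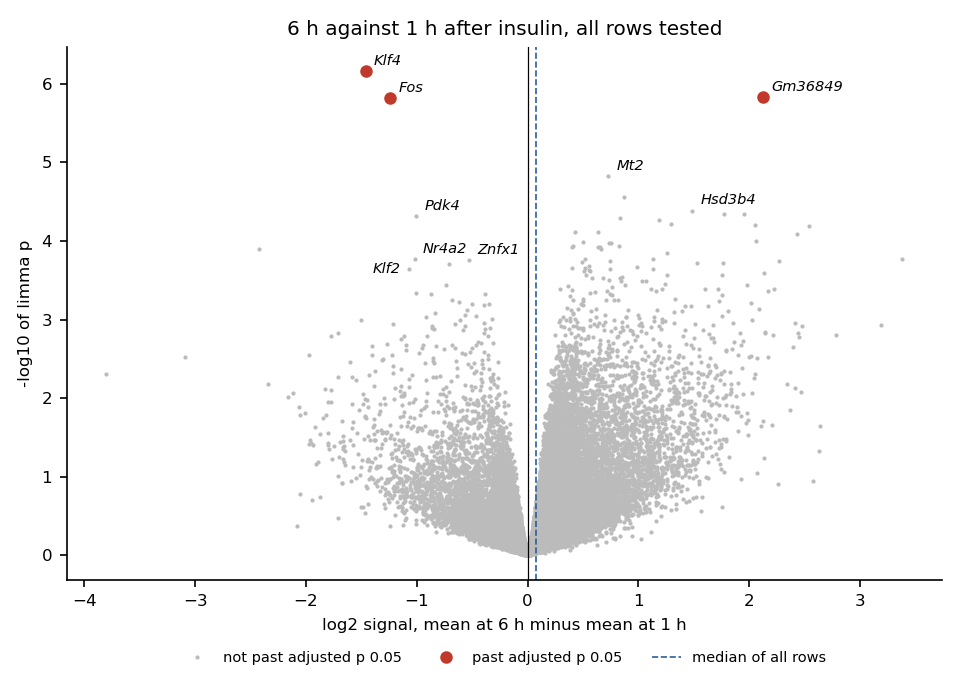
Difference in mean log2 signal between 6 h and 1 h (horizontal axis, log2) against the unadjusted limma p (vertical axis, -log10) for the 27445 rows tested. Red points are the 3 rows past an adjusted p of 0.05, Klf4 and Fos on the lower side and Gm36849 on the higher side; the dashed line marks the median of all rows at 0.07.

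Klf4 encodes a zinc finger transcription factor of the Krüppel-like family, induced in endothelium and other cells as an early response gene. Its log2 signal was -0.21, 0.02 and -0.32 at 1 h and -1.69, -1.48 and -1.72 at 6 h. All 3 values of 1 h were above all 3 of 6 h, with SDs of 0.17 and 0.13 (n = 3 each). Klf4 was 2.75-fold lower at 6 h (log2 difference -1.46, SE 0.13, limma adjusted p = 0.014). The mean at 15 min, -0.20, was close to that at 1 h, -0.17, while the mean with saline, -2.11, was below that at 6 h, -1.63.

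Fos encodes a subunit of the AP-1 transcription factor and is a widely used marker of recently active neurons. It read 2.46, 2.47 and 2.02 at 1 h and 0.90, 1.18 and 1.17 at 6 h. Every 1 h library was above every 6 h library, and the third library of 1 h was the lowest of its group. Fos was 2.36-fold lower at 6 h (log2 difference -1.24, SE 0.12, limma adjusted p = 0.014). With saline its mean was 0.96 and at 15 min 2.60, so the 6 h mean of 1.08 stood next to the saline mean.

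Gm36849 is a predicted long noncoding RNA gene on chromosome 7 (136353364 to 136356725, GRCm38.p6) and was singled out after its values were seen, as 1 of the 3 calls. It read -5.63, -5.52 and -5.54 at 1 h and -3.58, -3.36 and -3.36 at 6 h, with a saline mean of -2.93. Its groups were the tightest of the 3 called rows, and it was 4.37-fold higher at 6 h (log2 difference 2.13, SE 0.21, limma adjusted p = 0.014). These are low signals: genes with a value in 1 library only had a median of -6.50 at 1 kb of transcript. With an offset at the table median added before the log, the difference was 0.63 and the adjusted p 0.088, in a range of 0.0076 to 0.24 over all alternatives.

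The 3 calls used a spread estimated over all 11 libraries. With the 6 libraries of 1 h and 6 h alone limma called 0 rows, 2445 having an unadjusted p under 0.05; the adjusted p was 0.24 for Klf4 and Gm36849 and 0.44 for Fos. The direction of each held without any 1 of the 11 libraries. The adjusted p of all 3 rose above 0.05 without 1 h replicate 1 (0.084), 1 h replicate 2 (0.11), 6 h replicate 1 (0.073), 6 h replicate 3 (0.094) or saline replicate 1 (0.051). It did so for Fos (0.089) and Gm36849 (0.11) without 6 h replicate 2, for Fos (0.054) without saline replicate 2 and for Gm36849 (0.065) without 1 h replicate 3.

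The immediate early transcription factors as a list leaned to 1 h. The 2 called factors, Klf4 and Fos, are members and are included in the list's numbers. Of 26 members, all tested, 10 were lower in every 6 h library (38.5%, against 3.17% of all rows) and 0 were higher in every 6 h library. The median difference of the list was -0.48 against 0.07 for all rows, and 23 of 26 members were below 0. At an unadjusted p under 0.05 stood 13 members, all lower. The number lower in every 6 h library was 15 with equal medians (57.7%, against 9.83% of all rows) and 13 after cyclic loess scaling (50%, against 7.02%), so the share of all rows grew as well, and leaving out any 1 library of the 6 kept the list's median between -0.63 and -0.34.

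Nr4a2, Klf2 and Nr4a1 had the smallest p of the list after Klf4 and Fos, without passing the threshold. Klf2, a shear-responsive relative of Klf4, read 0.59, 0.49 and 0.18 at 1 h and -0.99, -0.37 and -0.59 at 6 h (log2 difference -1.07, SE 0.19, limma adjusted p = 0.13). Its saline mean, -1.37, was lower than all 3 values of 6 h. Nr4a2, an orphan nuclear receptor of neurons, read -0.49, -0.12 and -0.48 at 1 h and -1.64, -1.48 and -1.03 at 6 h (log2 difference -1.02, SE 0.18, adjusted p = 0.13). Nr4a1, of the same family, differed by less, -0.50, but with close replicates: -0.46, -0.65 and -0.47 against -1.13, -0.96 and -0.99 (adjusted p = 0.17). For both receptors the saline means, -1.44 and -1.16, were a little below the 6 h means of -1.39 and -1.03.

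**Figure D2:**
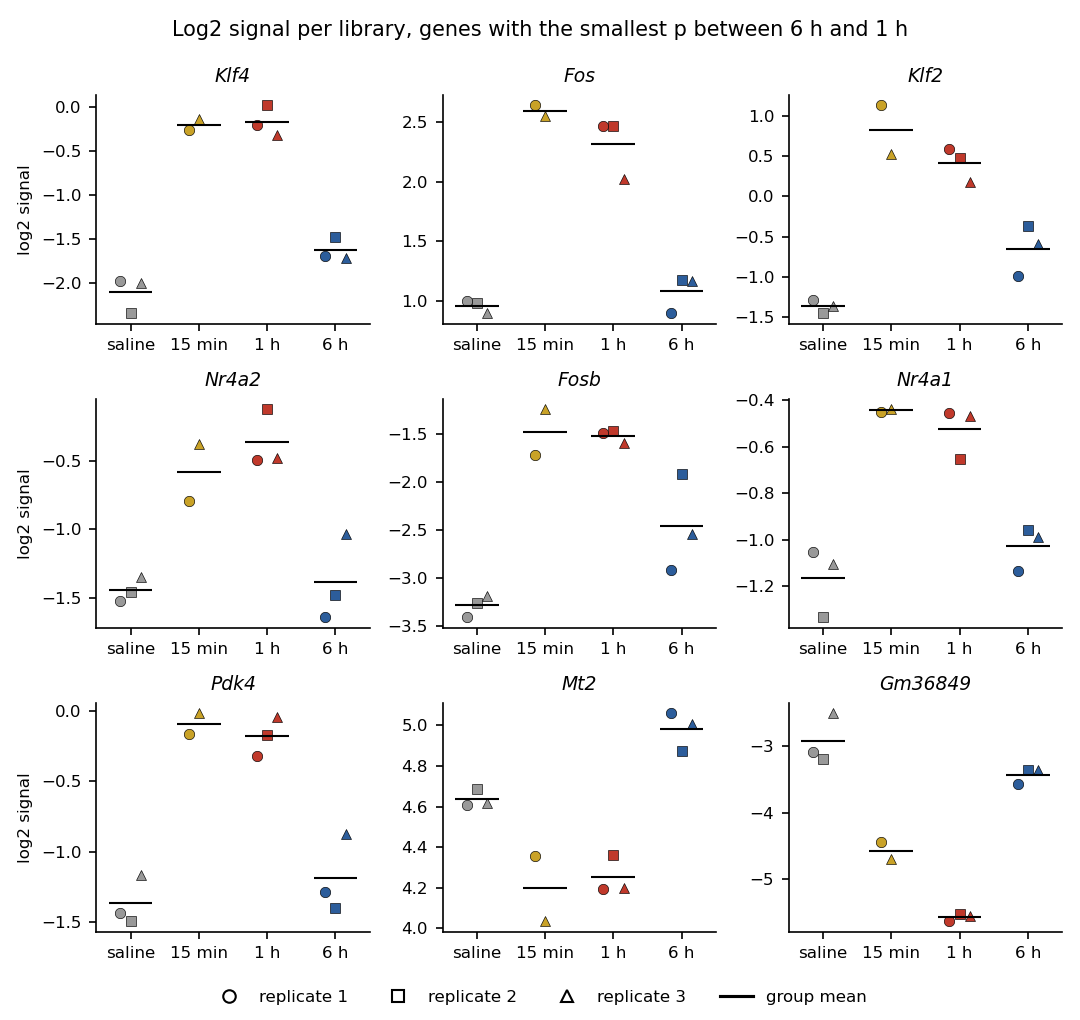
Log2 signal (vertical axes, a separate range for each gene) in each library by group for 9 genes, with replicate number as marker shape and the group mean as a line. The 3 libraries of 6 h lie below the 3 of 1 h in the Klf, Fos, Nr4a and Pdk4 panels and above them for Mt2 and Gm36849; Fosb has the widest spread at 6 h, from -2.91 to -1.92.

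The remaining AP-1 genes were uneven. Fosb read -1.49, -1.48 and -1.60 at 1 h and -2.91, -1.92 and -2.54 at 6 h (log2 difference -0.94, adjusted p = 0.22), with a saline mean of -3.28, so its 6 h libraries lay between saline and 1 h. Atf3, a stress-responsive partner of AP-1, read -3.73, -4.04 and -4.18 against -4.75, -6.38 and -4.97 (log2 difference -1.39, adjusted p = 0.26), with the second 6 h library far below the other two. Fosl2 read -0.75, -1.15 and -0.06 against -2.17, -1.54 and -1.31 (log2 difference -1.02, adjusted p = 0.32). Jun and Jund, in contrast, overlapped between the times, with differences of 0.14 and 0.18.

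In the Egr family, zinc finger factors induced by synaptic activity, the groups overlapped. Egr1 read 1.92, 2.33 and 2.24 at 1 h and 0.85, 2.19 and 1.33 at 6 h (log2 difference -0.70, SE 0.29, limma adjusted p = 0.41). The second 6 h library was in the range of 1 h and the first was below the saline mean of 1.02. Egr3 and Egr4 were the most variable members of the list, with standard errors of 0.69 and 0.56. Npas4, which is restricted to neurons, read -1.86, -1.78 and -1.70 against -2.71, -1.59 and -2.15, again with the second 6 h library above the others.

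The stretches before the starts of Fos and Klf4 are shown because these are the 2 protein-coding genes called in the comparison. They are the 250 bases upstream of the RefSeq start on GRCm38.p6, printed 5′ to 3′ in the direction of transcription. Of 9 motifs searched on both strands, 1 was found in each, marked by capitals: a TATA box (TATAAA) in Fos at position -33 from the start, and an E-box of the clock type (CACGTG) in Klf4 at position -182.
Fos (chr12:85473640-85473889, plus strand): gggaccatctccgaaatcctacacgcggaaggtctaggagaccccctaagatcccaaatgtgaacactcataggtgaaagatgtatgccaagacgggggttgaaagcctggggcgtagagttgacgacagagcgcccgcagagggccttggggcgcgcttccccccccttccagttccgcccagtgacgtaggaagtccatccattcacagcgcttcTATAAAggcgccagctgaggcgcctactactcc
Klf4 (chr4:55532476-55532725, minus strand): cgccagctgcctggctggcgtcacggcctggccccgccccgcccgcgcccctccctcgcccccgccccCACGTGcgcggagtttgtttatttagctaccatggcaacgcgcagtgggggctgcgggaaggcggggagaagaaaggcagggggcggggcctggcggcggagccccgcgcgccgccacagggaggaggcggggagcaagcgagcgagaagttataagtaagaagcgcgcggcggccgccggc
The TATA box letters occurred in 12.4% of the 32851 promoter windows of the same length and the E-box letters in 6.02%. Of the 10 immediate early factors lower in every 6 h library, 9 had a promoter entry. Of these 9, 2 held the TATA box and 1 the E-box. Only the listed letters were searched, so variants of a motif and sites further upstream were not counted. Most of the motifs are rare in all windows, so their absence from 9 promoters says little. None of the 9 held the cyclic AMP response element TGACGTCA (1.55% of all windows), the serum response element core (0.0609%), the FOXO site GTAAACA (3.17%), the D-box TTATGTAA (0.819%), the glucocorticoid response element (0.387%), the heat shock element (0.466%) or the RORE letters AGGTCA (14.0%) within these 250 bases.

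Among the effector genes downstream of neuronal activity and growth factors, 26 were tested. Of these, 3 were lower in every 6 h library (11.5%, against 3.17%), 0 were higher and the median difference was -0.16; limma called 0, with 5 lower at an unadjusted p under 0.05. With equal medians or after cyclic loess 9 were lower in every 6 h library (34.6%, against 9.83% and 7.02%), and without 1 library the number ran from 3 to 7, with 6 without 1 h replicate 3 or 6 h replicate 2 and 7 without 6 h replicate 3. Spry4, a feedback inhibitor of receptor tyrosine kinase signalling, read 0.04, 0.00 and 0.01 at 1 h and -0.76, -0.27 and -0.42 at 6 h (log2 difference -0.50, SE 0.12, limma adjusted p = 0.22). Its 1 h libraries were almost identical and its saline mean was -0.78. Nfkbia, the inhibitor that ends NF-kappaB signalling, read 2.82, 2.75 and 2.62 against 2.42, 2.41 and 2.17 (adjusted p = 0.28). Arc, a synaptic plasticity gene induced by activity, overlapped, at 2.18, 2.37 and 3.04 against 1.96, 2.38 and 2.24 (log2 difference -0.34, adjusted p = 0.68).

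Pdk4 and Mt2 had the smallest p in a mixed list of genes known to respond to glucocorticoids, and neither passed the threshold. Pdk4 encodes the kinase that shuts the pyruvate dehydrogenase complex and so spares glucose carbon; it is a classical target of FOXO, PPAR and the glucocorticoid receptor and is repressed by insulin in muscle and liver. It read -0.32, -0.17 and -0.04 at 1 h and -1.28, -1.40 and -0.88 at 6 h, 2.01-fold lower (SE 0.15 on the log2 scale, limma adjusted p = 0.13). The 15 min mean, -0.09, was close to the 1 h libraries and the saline mean, -1.36, to the 6 h libraries. With equal medians its adjusted p was 0.039, past the threshold, in a range of 0.039 to 0.44 over all alternatives.

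Mt2, a metallothionein that binds zinc and copper, had the opposite course. It read 4.19, 4.36 and 4.20 at 1 h and 5.06, 4.87 and 5.01 at 6 h, 1.66-fold higher at 6 h (log2 difference 0.73, SE 0.09, limma adjusted p = 0.10). All 3 values of 6 h were also above the saline mean of 4.64, and the 15 min mean was 4.20. It passed the threshold under 4 alternatives: cyclic loess scaling (adjusted p = 0.037), array weights (0.020) and without 15 min replicate 1 or 3 (0.038 each); the range over all alternatives was 0.020 to 0.44. The neighbouring metallothionein Mt1 overlapped between the times (log2 difference 0.23, adjusted p = 0.66).

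Of the 24 genes of the glucocorticoid list, 7 were lower (29.2%) and 3 higher (12.5%) in every 6 h library, and the median was -0.09 (unadjusted p under 0.05 in 6 lower and 3 higher). Zbtb16, a transcription factor strongly induced by steroids, read -0.93, -0.65 and -0.44 at 1 h and -2.03, -1.15 and -1.89 at 6 h (log2 difference -1.02, adjusted p = 0.28). Fkbp5, a chaperone of the steroid receptors, read -1.03, -0.93 and -1.04 against -1.39, -1.10 and -1.41 (adjusted p = 0.49), and Sgk1, a kinase induced by steroids, differed by -0.26 (adjusted p = 0.59). Both were separated by narrow gaps, and their 6 h means, -1.30 and 0.26, were above the saline means of -1.98 and -0.49. Per1, which responds to steroids as well as to the clock, overlapped (log2 difference -0.04). Plin4, a lipid droplet coat protein, was higher in every 6 h library, at 2.64, 2.44 and 2.93 against 2.16, 1.92 and 2.31 (log2 difference 0.54, adjusted p = 0.37).

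Of 28 FOXO targets tested, Pdk4 among them, 5 were lower (17.9%, against 3.17% of all rows) and 1 higher (3.57%, against 13.3%) in every 6 h library, with a median of -0.05 (unadjusted p under 0.05 in 4 lower and 1 higher). Without 6 h replicate 2 the counts were 10 lower (35.7%, against 5.85%) and 5 higher (17.9%, against 27.3%); 5 were also higher without 6 h replicate 1, 4 without 1 h replicate 3 and 2 without 1 h replicate 1 or 2. Klf15, a regulator of amino acid and lipid use that also belongs to the glucocorticoid list, read 1.62, 1.74 and 1.59 at 1 h and 1.16, 1.31 and 1.30 at 6 h (log2 difference -0.40, SE 0.09, limma adjusted p = 0.20). Txnip, which restrains glucose uptake, read 0.56, 0.48 and 0.93 against -0.29, -0.18 and -0.04 (log2 difference -0.83, adjusted p = 0.25), with a saline mean of 0.17 between the times. Irs2, the insulin receptor substrate that FOXO factors induce, overlapped at 1.501, 1.41 and 1.56 against 1.04, 1.86 and 1.20.

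Cytosolic heat shock genes, most of them chaperones, leaned to 1 h. Of 24 tested, 23 differed in the direction of 1 h, and 2 were lower in every 6 h library (8.33%) and the median difference was -0.20; 7 stood at an unadjusted p under 0.05, all lower. Dnajb1, the HSP40 partner of HSP70, was one of the 2: it read 3.56, 4.12 and 3.23 at 1 h and 2.65, 2.66 and 2.59 at 6 h, 2.01-fold lower (SE 0.20 on the log2 scale, limma adjusted p = 0.15). Its 6 h libraries were as tight as those with saline, where the mean was 2.66. Hspa1b, the inducible HSP70, read 3.19, 4.63 and 1.79 at 1 h and 1.98, 0.84 and 0.62 at 6 h (log2 difference -2.06, SE 0.68, adjusted p = 0.30), so the third library of 1 h was below the first of 6 h. Reads of Hspa1b and its near-identical copy Hspa1a (-1.44, adjusted p = 0.38) could be split between the 2, so their separate values are uncertain. The second library of 1 h was the highest for Dnajb1, Hspa1b and Hspb1. Without it the list's median was -0.12 and the difference of Dnajb1 was -0.76. Then 2 of 24 members were lower in every 6 h library (8.33%, against 4.84% of all rows). The number lower was larger without 1 h replicate 3, at 9 (37.5%, against 6.08% of all rows), without 6 h replicate 1, at 8 (33.3%, against 5.22%), and with equal medians, at 5 (20.8%, against 9.83%). It was 3 without 6 h replicate 2 or 3 (12.5%, against 5.85% and 8.96%), and without 6 h replicate 2 the median was -0.06. After cyclic loess scaling it was 2 (8.33%, against 7.02% of all rows). It was also 2 without 1 h replicate 1 (8.33%, against 6.94%). Both shares were close to those of all rows.

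Genes of the unfolded protein response of the endoplasmic reticulum, which answers misfolded secretory proteins, were mixed in direction, with 18 below 0 and 8 above. The list holds chaperones as well as transcription factors and enzymes. Of 26 tested, 6 were lower (23.1%) and 3 higher (11.5%) in every 6 h library, and the median was -0.13 (unadjusted p under 0.05 in 9 lower and 1 higher). The number lower was 13 without 1 h replicate 3 (50%, against 6.08% of all rows), 11 without 6 h replicate 1 (42.3%, against 5.22%) and 9 with equal medians (34.6%, against 9.83%). It was 7 (26.9%) without 1 h replicate 1, without 6 h replicate 2 or after cyclic loess, against 6.94%, 5.85% and 7.02%. Without 1 h replicate 2 or 6 h replicate 3 it was 6 (23.1%, against 4.84% and 8.96%). The median was -0.05 without 1 h replicate 2, -0.06 without 6 h replicate 2 and -0.10 without 1 h replicate 1. Xbp1, the transcription factor activated by splicing in this response, read 3.63, 3.57 and 3.43 at 1 h and 3.19, 3.12 and 3.16 at 6 h (log2 difference -0.38, SE 0.08, limma adjusted p = 0.15). Both saline, at 3.26, and 15 min, at 3.22, were near the 6 h libraries, so 1 h stood apart. Creld2 read 0.09, 0.19 and -0.27 against -0.64, -0.69 and -0.41 (adjusted p = 0.19), and Sdf2l1 1.88, 2.06 and 1.46 against 1.44, 1.14 and 1.11 (adjusted p = 0.22). Both encode proteins of the endoplasmic reticulum, as do the disulfide isomerases Pdia6 (-0.41) and Pdia4 (-0.38). Chac1, a glutathione-degrading enzyme of the same response, had the opposite sign (0.57, adjusted p = 0.35), set by the first 6 h library at 1.40 beside 0.48 and 0.53.

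**Figure D3:**
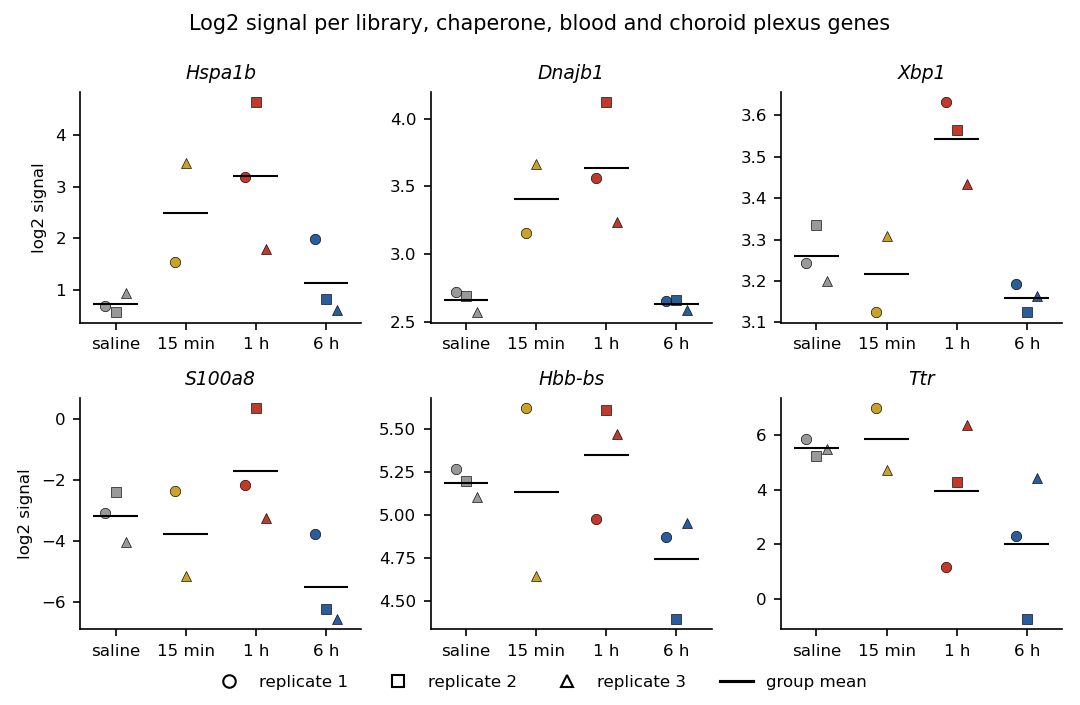
Log2 signal (vertical axes, a separate range for each gene) in each library by group for 3 chaperone or unfolded protein response genes and 3 markers of blood or choroid plexus, with replicate number as marker shape and the group mean as a line. The second 1 h library is the highest of the 11 for Hspa1b, at 4.63, and for S100a8, at 0.33, and Ttr spans -0.73 to 6.39 across the 6 libraries of 1 h and 6 h.

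Blood markers were highest in the library that was highest for the chaperones. All 9 blood markers tested were below 0, 5 of them lower in every 6 h library (55.6%), with a median of -0.61 (unadjusted p under 0.05 in 5). Their summed level, over the 10 in the table, was 6.41 to 7.13 at 1 h and 6.01 to 6.34 at 6 h (exact permutation test, two-sided, p = 0.1). Haemoglobin Hbb-bs read 4.97, 5.61 and 5.47 at 1 h and 4.87, 4.40 and 4.95 at 6 h. S100a8, a neutrophil protein, read -2.17, 0.33 and -3.26 against -3.75, -6.21 and -6.53 (log2 difference -3.80, SE 1.06, limma adjusted p = 0.24). The second library of 1 h was the highest of the 6 for both. Without it the blood list's median was -0.44.

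For the choroid plexus, all 11 markers tested were below 0, with a median of -1.12, yet 0 of 11 were separated and 0 had an unadjusted p under 0.05 in limma. Ttr, the transthyretin made by that tissue, read 1.17, 4.29 and 6.39 at 1 h and 2.31, -0.73 and 4.44 at 6 h. The summed level of the 12 markers in the table ranged from 1.88 to 6.51 at 1 h and from 0.61 to 4.64 at 6 h (exact permutation test, two-sided, p = 0.5). The 6 libraries thus held very different amounts of plexus transcripts within each time. In whole tissue, fewer cells of a type and less RNA per cell cannot be told apart, and the part of blood and plexus in the differences of Klf2, Klf4 and the chaperones was not tested.

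Among other cell types the summed level of 15 astrocyte markers was 7.63 to 7.75 at 1 h and 7.68 to 7.80 at 6 h (p = 0.3, exact permutation test), and Gfap differed by 0.25 (adjusted p = 0.82). The summed level of 11 endothelial markers was higher in every 6 h library, 3.61 to 3.95 against 3.49 to 3.59 (p = 0.1, exact permutation test), although 1 of the 11 was higher and 2 were lower in every 6 h library. Fgfr3, a receptor of astrocytes, was higher in every 6 h library, at 2.59, 2.88 and 2.70 against 2.36, 2.33 and 2.28 (log2 difference 0.40, limma adjusted p = 0.15). Pdgfrb, a pericyte receptor, was also higher, at -1.77, -1.57 and -1.61 against -2.10, -2.39 and -2.16 (log2 difference 0.57, adjusted p = 0.19). The summed level of the 9 pericyte and mural markers overlapped, at 3.17 to 3.499 and 3.19 to 3.47 (p = 0.9, exact permutation test).

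Dnah7b, an axonemal dynein of motile cilia, was higher in every 6 h library: it read -1.81, -1.72 and -2.31 at 1 h and 0.23, -1.42 and -0.39 at 6 h (log2 difference 1.42, SE 0.41, limma adjusted p = 0.26), with a saline mean of 2.03. The 12 of 14 cilia markers below 0 did not share it, and Foxj1, the master regulator of these cilia, read 1.03, 1.32 and 1.12 against 0.62, 0.79 and 0.94. Among 1 h, 6 h and saline, Rn18s-rs5 was likewise lowest at 1 h and highest with saline (mean 14.28). Its 15 min mean, 10.08, was below its 1 h mean, 10.30, so 1 h was not its lowest group. Whether the 18S level has a part in the values of Dnah7b was not tested.

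Core clock genes were examined because the time of day of sampling is not given in the sources used here and may differ between the groups. Of 23 tested, 2 were lower in every 6 h library (8.70%) and 0 higher, and the median was 0.08 against 0.07 for all rows. The 2 were Nfil3, a repressor of the D-box, at -0.45, -0.63 and -0.75 against -1.10, -1.21 and -0.92 (log2 difference -0.47, limma adjusted p = 0.22), and Nr1d2 (-0.22, adjusted p = 0.37). Dbp (0.21), Nr1d1 (0.20), Arntl (0.09) and Per2 (-0.40), which cycle strongly in most tissues, overlapped between the times.

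No gene of the insulin signalling lists passed the threshold (limma; unadjusted p under 0.05 in 1 of 23 receptors, substrates and ligands and 2 of 32 PI3K, AKT and mTOR components, all higher). Insr, the insulin receptor, read -0.89, -0.81 and -0.64 at 1 h and -0.90, -0.45 and -0.75 at 6 h (log2 difference 0.08, 95% confidence interval -0.23 to 0.38). Of the 23, 2 were higher in every 6 h library (8.70%) and 0 lower; the 2 were Socs1, a suppressor of receptor signalling (0.47, limma adjusted p = 0.40), and Ide, the insulin-degrading enzyme (0.31, adjusted p = 0.61). Of the 32, 5 were higher (15.6%, against 13.3% of all rows) and 0 lower. That direction turned with the scaling: 2 were higher and 6 lower with equal medians, and 2 higher and 4 lower after cyclic loess. For the receptors, substrates and ligands it was 0 higher and 1 lower with equal medians. The smallest p among them belonged to Rps6kb2, a ribosomal S6 kinase, at 0.46, 0.63 and 0.43 against 0.05, 0.12 and 0.16 (log2 difference 0.40, adjusted p = 0.24), and Mlst8, an mTOR subunit (0.28, adjusted p = 0.25).

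Genes of fatty acid use bear on the study's stated subject, and none passed the threshold. In the list of beta-oxidation and carnitine shuttle genes, 33 in number, 2 had an unadjusted p under 0.05 (limma), both higher. In it 5 were higher (15.2%, against 13.3%) and 1 lower (3.03%, against 3.17%) in every 6 h library, close to the shares of all rows; with equal medians 1 was higher and 3 lower. Cpt1a, which admits long-chain fatty acids to mitochondria, read -1.66, -1.49 and -1.51 at 1 h and -1.66, -1.77 and -1.39 at 6 h (log2 difference -0.05, 95% confidence interval -0.34 to 0.25). The interval was -0.35 to 0.22 for Cpt2, the inner-membrane partner, -0.14 to 0.26 for Acadvl and -0.12 to 0.26 for Hadha, enzymes of the oxidation cycle. Ppara, the receptor that induces these genes, was the 1 lower in every 6 h library, at -3.74, -3.79 and -3.55 against -3.46, -3.35 and -3.48 (log2 difference -0.27, limma adjusted p = 0.55). Angptl4, a target of it, overlapped (log2 difference 0.38, adjusted p = 0.69).

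Fatty acid uptake and synthesis held a few transporters and elongases with separated groups. Of 18 uptake genes, 4 were higher (22.2%, against 13.3% of all rows) and 0 lower, with 4 at an unadjusted p under 0.05. With equal medians 1 was higher and 1 lower (5.56% each, against 6.43% and 9.83%). After cyclic loess 4 were higher (22.2%, against 8.14%) and 0 lower. Without 1 library of the 6, 5 to 7 were higher (27.8% to 38.9%, against 16.3% to 27.3% of all rows). Mfsd2a, the transporter of docosahexaenoic acid at the blood-brain barrier, read 0.08, -0.10 and -0.14 at 1 h and 0.44, 0.33 and 0.23 at 6 h (log2 difference 0.39, SE 0.11, limma adjusted p = 0.24). Slc27a1, a fatty acid transport protein, read 1.04, 1.07 and 1.18 against 1.27, 1.78 and 1.42 (log2 difference 0.39, adjusted p = 0.26). Among 25 synthesis genes, 4 were higher (16%) and 1 lower (4%): the elongases Elovl1 and Elovl6 differed in opposite directions, by 0.28 (adjusted p = 0.24) and -0.34 (adjusted p = 0.25). Fasn, fatty acid synthase, read 3.38, 3.46 and 3.53 against 3.14, 3.95 and 3.37 (95% confidence interval of the difference -0.36 to 0.43). In the ceramide list the smallest p was that of St8sia3, a ganglioside sialyltransferase, at -3.21, -3.09 and -3.39 against -4.11, -4.03 and -4.05 (log2 difference -0.83, SE 0.18, adjusted p = 0.19), while 4 of 32 members were higher (12.5%). With equal medians the synthesis list had 2 higher and 3 lower, and the ceramide list 0 higher and 2 lower.

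Among 32 genes of pyruvate dehydrogenase and the tricarboxylic acid cycle, Pdk4 was the 1 lower in every 6 h library and the 1 at an unadjusted p under 0.05; 4 were higher in every 6 h library (12.5%). Slc2a1, the glucose transporter of the blood-brain barrier and astrocytes, read 1.16, 1.37 and 1.13 at 1 h and 0.73, 1.16 and 0.59 at 6 h (log2 difference -0.39, limma adjusted p = 0.33). The second 6 h library lay inside the range of 1 h, so the groups overlapped. Of 22 glycolysis genes, 4 were higher (18.2%) and 0 lower, among them Slc2a4, the insulin-responsive transporter, at -2.43, -2.55 and -2.38 against -2.85, -2.87 and -3.01 (adjusted p = 0.44). P4ha1, a collagen hydroxylase that responds to hypoxia, read 0.09, 0.60 and 0.05 against -0.23, -0.65 and -0.34 (log2 difference -0.65, adjusted p = 0.22). Of 23 glycogen genes, 5 were higher (21.7%) and 1 lower (4.35%). Epm2a, the glycogen phosphatase laforin, had very close replicates at -2.27, -2.27 and -2.25 against -2.59, -2.63 and -2.59 (log2 difference 0.34, adjusted p = 0.27), and Ppp1r3c, which targets a phosphatase to glycogen, differed by -0.26 (adjusted p = 0.33). With equal medians the members higher and lower in every 6 h library were 0 and 3 for pyruvate dehydrogenase and the tricarboxylic acid cycle, 1 and 3 for glycolysis and 1 and 3 for glycogen. After cyclic loess they were 1 and 1, 4 and 0, and 3 and 2, in the same order. The 4 are 18.2%, against 8.14% of all rows. Without 6 h replicate 2 those higher were 14 (43.8%), 10 (45.5%) and 7 (30.4%), against 27.3% of all rows. Without any other of the 6 libraries the first 2 lists had at most 6 higher (18.8% and 27.3%), against 16.3% to 20.9% of all rows.

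Respiratory chain genes were counted separately for the nuclear and the mitochondrial genome. Of 73 nuclear subunits, 13 were higher (17.8%, against 13.3%) and 1 lower (1.37%, against 3.17%), with a median of 0.04. With equal medians the direction turned, to 0 higher and 11 lower (15.1%, against 9.83%). After cyclic loess 8 were higher (11%, against 8.14%) and 2 lower (2.74%, against 7.02%). Without 6 h replicate 2, 35 were higher (47.9%, against 27.3%) and 3 lower (4.11%, against 5.85%). Without any other of the 6 libraries 15 to 17 were higher (20.5% to 23.3%, against 16.3% to 20.9%). Of the 13 mitochondrially encoded genes, 3 were higher (23.1%) and 1 lower (7.69%), with a median of 0.20. ND4L read 6.05, 6.05 and 6.37 at 1 h and 7.10, 7.22 and 6.43 at 6 h (log2 difference 0.76, SE 0.19, limma adjusted p = 0.22), and ND3 had the opposite sign (-0.34, adjusted p = 0.57). The summed level of the 13 ran from 15.09 to 15.22 at 1 h and from 14.96 to 15.39 at 6 h (p = 0.8, exact permutation test).

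**Figure D4:**
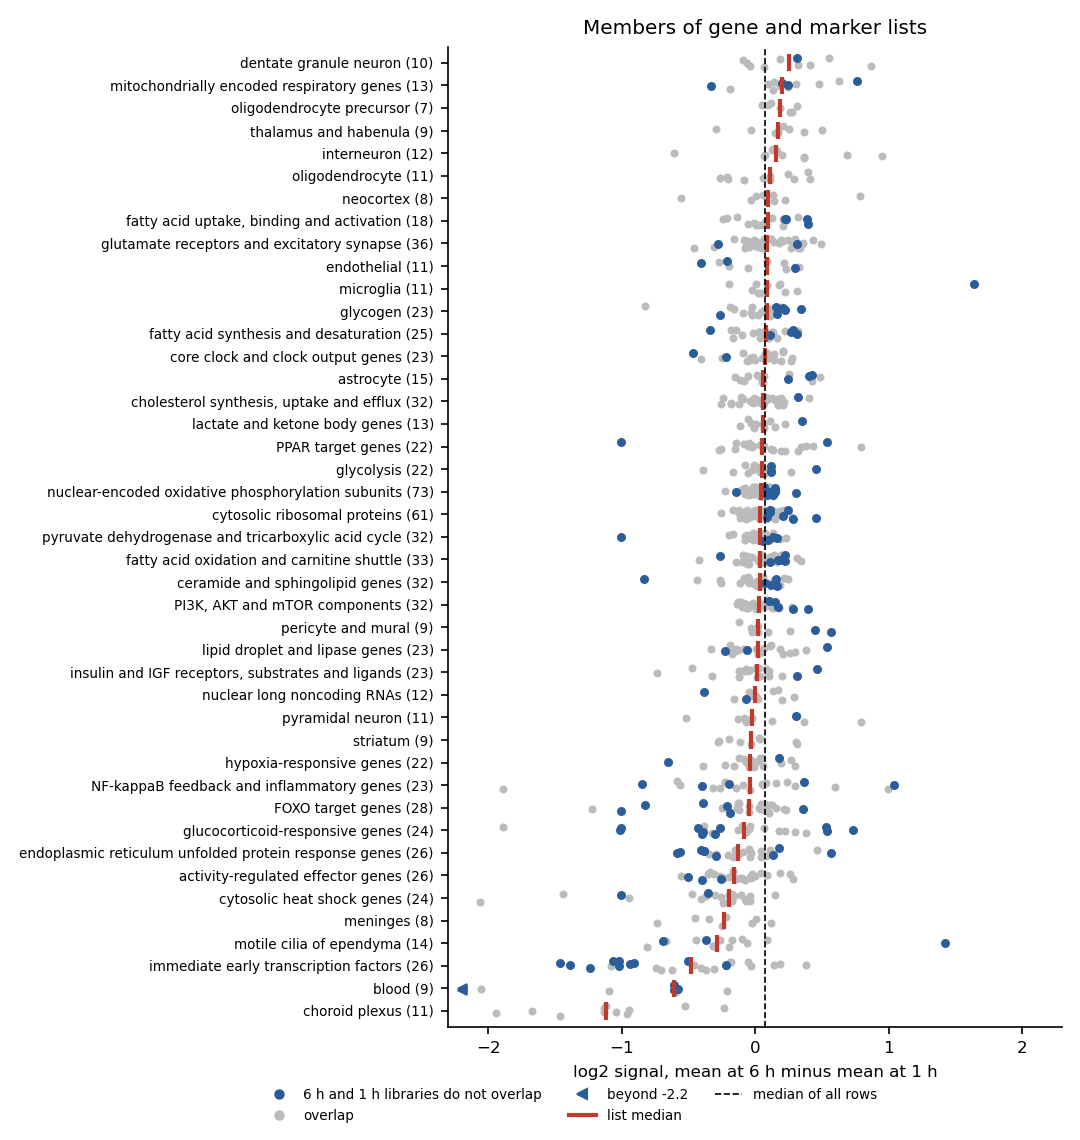
Difference in mean log2 signal between 6 h and 1 h (horizontal axis, log2) for each tested member of the gene and marker lists (vertical axis, number of members in parentheses), ordered by list median. Blue points are members whose 6 h and 1 h libraries do not overlap, grey points overlap, red bars are list medians and the dashed line is the median of all rows; the blood, choroid plexus and immediate early lists have the lowest medians, at -0.61, -1.12 and -0.48.

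The inflammatory and synaptic lists had few separated members. Of 21 NF-kappaB and inflammatory genes with a value in all 6 libraries, 2 were higher (9.52%) and 3 lower (14.3%); the 3 were Nfkbia, Il1b (-0.85, limma adjusted p = 0.61) and Cd14 (-0.20, adjusted p = 0.67). Of 36 glutamate receptor and excitatory synapse genes, 1 was higher and 1 lower (2.78% each). Snap25, a vesicle fusion protein, read 3.49, 3.33 and 3.43 at 6 h against 3.66, 3.73 and 3.70 (log2 difference -0.28, SE 0.08, adjusted p = 0.26). Grin1, the obligatory NMDA receptor subunit, was higher at 2.13, 2.75 and 2.12 against 1.99, 1.99 and 2.09 (log2 difference 0.31, adjusted p = 0.50).

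The other pathway lists were described in the same way. Of 61 cytosolic ribosomal protein genes, 8 were higher (13.1%, against 13.3% of all rows) and 0 lower, with a median of 0.04, among them Rpl27 (0.29, limma adjusted p = 0.40). With equal medians 1 was higher and 10 lower (16.4%, against 9.83%), the opposite direction, and after cyclic loess 4 were higher and 0 lower. Of 32 cholesterol genes, 1 was higher (3.12%) and 0 lower; Hmgcs1, which starts the synthesis of sterols, overlapped (-0.24, adjusted p = 0.46). Of 23 lipid droplet and lipase genes, 1 was higher, Plin4, and 2 were lower, Lipa, the lysosomal acid lipase (-0.22, adjusted p = 0.33), and Lpin2 (-0.06). Of 12 nuclear long noncoding RNAs, 2 were lower (16.7%) and 0 had an unadjusted p under 0.05. Among neuronal and region markers, 1 of 10 dentate granule and 1 of 11 pyramidal neuron markers were higher in every 6 h library, and 0 of the interneuron, striatum, neocortex and thalamus markers were separated.

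The rule for named genes also took the smallest p in each direction outside these lists, none of them past the threshold. Higher in every 6 h library were Hsd3b4, a steroid-metabolizing enzyme of the 3-beta family (log2 difference 1.49), Gpr15, a chemoattractant receptor (2.07), Srpk3, a kinase of splicing factors (0.64), Cercam (0.75), Tgfbr3l (0.83), Porcn, the acyltransferase of Wnt proteins (0.41), Rfx5, a regulator of MHC class II (0.41), and Cdc25b, a cell cycle phosphatase (0.65), each with a limma adjusted p of 0.13. Hsd3b4 read -5.53, -6.09 and -6.03 at 1 h and -4.44, -4.37 and -4.38 at 6 h, with a saline mean of -3.33, a low signal at every time. Porcn and Rfx5 had close replicates: Porcn read 0.25, 0.21 and 0.25 against 0.67, 0.73 and 0.56, and Rfx5 0.46, 0.57 and 0.47 against 0.84, 0.98 and 0.89. Their saline means, 0.65 and 0.85, stood beside 6 h means of 0.65 and 0.90.

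On the lower side stood Znfx1, an antiviral helicase, Cys1, a protein of primary cilia, Ccdc117 and Nes. Znfx1 read 1.14, 1.39 and 1.06 at 1 h and 0.65, 0.66 and 0.68 at 6 h (log2 difference -0.53, SE 0.09, limma adjusted p = 0.13). The spread at 6 h was very small, and saline lay at 0.59. Nes, the intermediate filament nestin of neural progenitors and endothelium, read 0.29, 0.27 and -0.06 against -0.57, -0.997 and -0.57 (log2 difference -0.87, SE 0.17, adjusted p = 0.15). At 15 min its mean was -0.45 and with saline -0.60, so 1 h was the highest group. Cys1 and Ccdc117 differed by -0.71 and -0.74 (adjusted p = 0.13 and 0.15).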

How the data were processed

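Stranded total RNA libraries of mouse hippocampus were sequenced from both ends, per the labels' protocols. Tools named in the submitters' processing notes are bcl2fastq and Partek 6.7, with build GRCm38; which aligner, counter or annotation was used is not given in the sources used here. The deposited table holds log2 signals for 46202 gene symbols. The authors' values are quantile-normalized (minimum -13.64, median -3.20, maximum 16.00 in every library) and scaled for length, which the values themselves show: rarely detected genes fell by 0.89 to 1.01 per doubling of length, as a log of base 2 would. Reads cannot be recovered, so depth and counting error are unknown.

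Differences were tested with limma 3.58.1 in R 4.3.3 on 4 group means over 11 libraries, two-sided, with a mean-variance trend and Benjamini-Hochberg adjustment at 0.05. Rows in the lowest 40% by mean, or with fewer than 2 values in either group, were left out; 1674 of the 27445 kept rows had a missing value, which stayed missing. ± values and n refer to libraries. Lists were described by counts without overlap and medians, with no set test. Named genes were the smallest p in each direction with no overlap between groups, predicted genes passed over, the 2 smallest p of each pathway list and a fixed panel; other list members, among them Dnah7b, Hspa1b, Atf3, Txnip and Zbtb16, were chosen after their values were seen. The comparison, its members and the lists were chosen with earlier results of these data known. Positions and promoters are from RefSeq on GRCm38.p6 (37292 of 46202 symbols matched). The test was checked on simulated data. Alternatives were the groups fitted, filters, a linear offset, 2 scalings, missing values, shrinkage, array weights, a replicate block and leaving out each library. Some list members and sums that need them are not reported here.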

Additional observations from a re-analysis of the deposited data

How the results depend on the processing

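The count of 3 called genes became 0 with the 6 libraries of 1 h and 6 h alone (2445 rows at an unadjusted p under 0.05), 27 with array weights (23 higher and 4 lower at 6 h) and 0 with the replicate number as a block (3505 unadjusted); without 1 library it ran from 0 to 4, and under every other alternative from 2 to 4. It was 0 without 1 h replicate 1 or 2, 6 h replicate 1 or 3, or saline replicate 1, and 1 without 6 h replicate 2. The cause of these changes was not tested. Deviations of libraries with the same replicate number correlated at 0.15, -0.03 and 0.10 over 25771 genes. Replicates 1 and 3 of 6 h correlated best with the 1 h library of their own number, and replicate 2 did not. With 3 libraries in each group, these values cannot decide whether replicate numbers pair the libraries. Klf4, Fos and Gm36849 kept their direction under all 23 alternatives each, with adjusted p from 0.0068 to 0.24, 0.0040 to 0.44 and 0.0076 to 0.24. Mt2 passed the threshold under 4 alternatives, Pdk4 with equal medians, and Klf2, Hsd3b4, Srpk3, Gpr15, Cercam, Tgfbr3l and Mrgpra3 with array weights. Small differences changed sign. Without 1 library Per1 ran from -0.41 to 0.18, Insr from -0.046 to 0.18, Irs2 from -0.37 to 0.040, Cpt1a from -0.16 to 0.031 and Fasn from -0.196 to 0.21, the ends being runs without a 6 h library. With equal medians Arntl was -0.019, Insr -0.028, Acadvl -0.045, Hadha -0.037 and Fasn -0.070, and after cyclic loess Arntl was -0.010. With array weights Cpt1a was 0.055 and Fasn -0.10. How far depth limits low signals such as Gm36849 cannot be given, since it is unknown.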
